A study of Mus musculus with 6 samples.

Results

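Csf1r, Adgre1, Cd68, Aif1, Mertk, Ms4a7, Fcgr1 and Spi1 are genes by which macrophages are commonly recognised, Csf1 encodes the growth factor that macrophages depend on, and Ptprc encodes CD45, the surface phosphatase of nucleated blood cells. These 10 genes, of 18099 in the table, were taken by name as general macrophage and leukocyte genes, with earlier results of these libraries known, and were compared between mutant and control tissue to judge macrophage content. RNA sequencing had been performed on injured Achilles tendon from neonatal mice, collected 7 days after transection. The 3 control mice were Ampkα1 fl/fl littermates, in which the floxed alleles are intact, and the 3 knockout mice were LysM-Cre; Ampkα1 fl/fl, in which Cre is made from the lysozyme M locus and removes Ampkα1 (Prkaa1) in myeloid cells. All 6 mice therefore carried the floxed alleles and the injury, and only the knockout mice carried Cre. The RNA came from whole tissue, in which cells without Cre keep Prkaa1, and sex and strain are not given in the sources used here.

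In a healing tendon, macrophages come from cells already resident in the tissue and from blood monocytes. CSF1, made largely by stromal cells, binds the receptor tyrosine kinase CSF1R and keeps both alive. The transcription factor PU.1, encoded by Spi1, is required for the myeloid lineage. The remaining products serve functions of the mature cell, such as binding antibody (Fcgr1) and engulfing dying cells (Mertk), or are used as markers of it (Adgre1, which encodes F4/80, Cd68 and Aif1, which encodes IBA1).

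All 10 genes were well detected, with at least 144 reads in every library. All 10 also passed the filter on low counts. Expressed as CPM, the reads of a gene scaled to the size of its library after TMM normalization, Csf1r, Adgre1, Aif1, Spi1, Csf1 and Ptprc had a lower mean in knockout tendon, and Cd68, Mertk, Ms4a7 and Fcgr1 a higher one. The log2 fold changes, knockout over control, ran from -0.63 for Csf1r to 0.25 for Cd68, with a median of -0.26, against -0.00203 over the 14261 genes tested. None of these differences passed an adjusted p of 0.05 in the edgeR quasi-likelihood test, which called 0 of the 10 genes where it called 0.898% of all genes tested (0.33% higher and 0.568% lower). With the replicate number as a block it also called 0, against 0.33% of all genes, and 8 of the 10, Cd68 being the one added, had an unadjusted p under 0.05, against 15.9%. The labels number the mice of each group but do not state pairs. Within the 3 pairs formed by the same number, 9 of the 10 genes had 1 sign throughout, against 38.6% of all genes, and Fcgr1 did not. Without the block, 7 of the 10 had an unadjusted edgeR p under 0.05, 2 of them higher and 5 lower. The share of all genes was 14.5% (5.97% higher and 8.55% lower). DESeq2 called 2, Csf1r and Adgre1, against 4.77% of all genes. The limma test on log2(TPM + 0.5) called 0, against 69 of the 14261 genes tested. The 3 values of one group lay wholly above or below the 3 of the other for 6 genes, 2 higher and 4 lower, against 20.4% of all genes tested (8.94% higher and 11.4% lower). In whole tissue, fewer macrophages and less of an RNA per macrophage cannot be told apart.

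**Figure D1:**
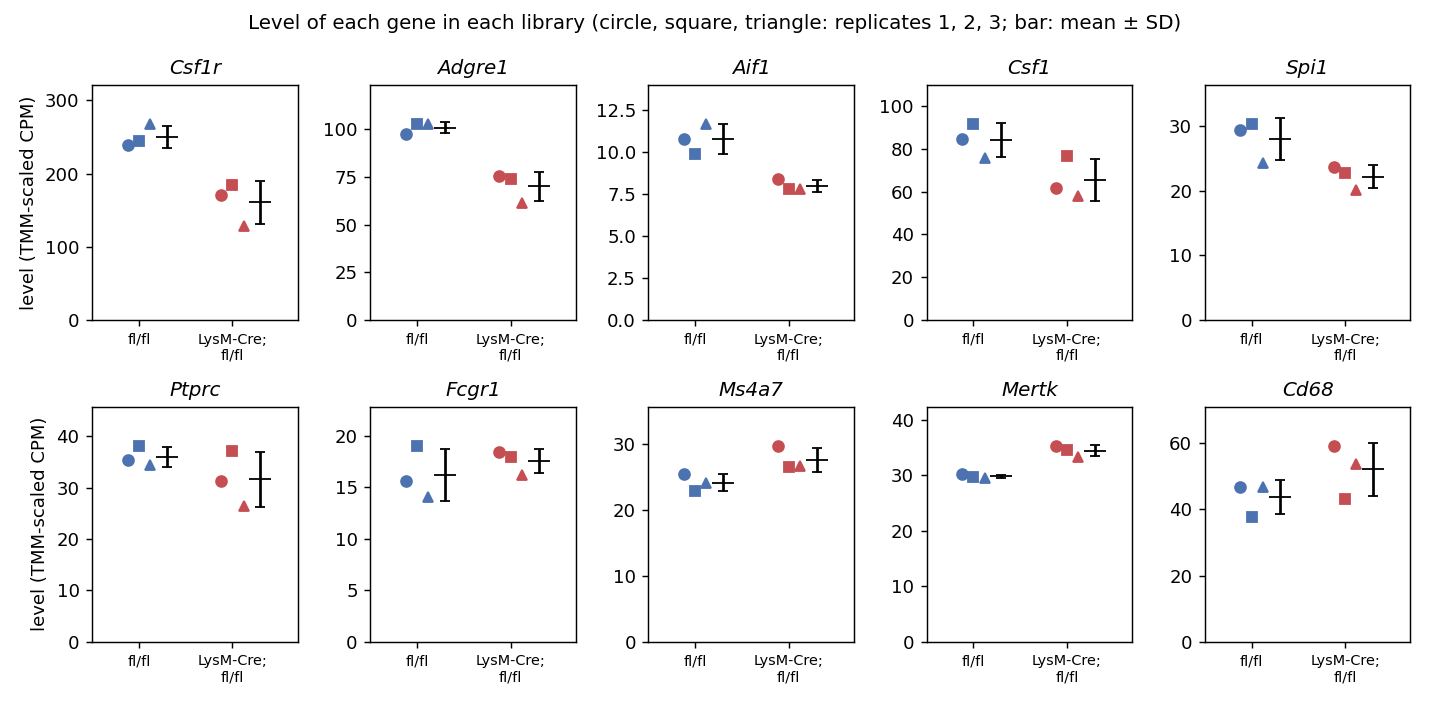
Each panel plots 1 gene, with CPM on the vertical axis and the control and knockout libraries on the horizontal axis; points are the 3 mice of a group and the bar gives the mean and SD. Csf1r, Adgre1, Aif1 and Spi1 have every knockout mouse below every control mouse, Mertk and Ms4a7 have every knockout mouse above, and the groups overlap for Cd68, Fcgr1, Csf1 and Ptprc.

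Libraries held between 18076805 and 19479887 reads, and the 10 most abundant genes took between 17.18% and 18.4% of a library. The targeted gene, Prkaa1, had 740, 688 and 690 reads in control tissue and 626, 751 and 652 in knockout tissue (log2 fold change -0.08 ± 0.09, SE, edgeR adjusted p = 0.744), and no difference was detectable in whole tissue. Lyz2, the gene whose locus carries Cre, had 7378, 7778 and 7372 reads in control tissue and 9, 15 and 8 in knockout tissue (adjusted p = 3.41e-06). Those reads match the labels, and they also show that the groups differed in Lyz2 itself, which encodes the lysozyme of myeloid cells. Tissue from mice with Cre and without floxed alleles was not analysed here, and Cre, loss of Lyz2 and loss of Prkaa1 cannot be told apart. Summed over 16 skeletal muscle genes, the level was 245, 750 and 4095 CPM in the control mice and 4417, 1355 and 11991 CPM in the knockout mice, so muscle RNA varied within both groups and was higher in the knockout mouse of each same-numbered pair. The edgeR, DESeq2 and limma tests called 0 of the 16, with 0 at an unadjusted p under 0.05 (15 with the block).

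Csf1 is the ligand. It lies on chromosome 3 (107741048 to 107760469, genome build GRCm38.p6) and measured 84.7, 91.5 and 75.8 CPM in the control mice and 61.6, 76.4 and 57.7 CPM in the knockout mice. The second knockout mouse lay just above the third control mouse, so the groups overlapped, although the knockout mouse was lower in each of the 3 pairs. The means were 84.0 ± 7.87 and 65.2 ± 9.87 CPM (SD, n = 3 each), and the log2 fold change was -0.36 (95% confidence interval -0.65 to -0.08, edgeR adjusted p = 0.224).

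Csf1r, the receptor for CSF1 and IL-34, had the largest difference of the 10 genes. It lies on chromosome 18 (61105572 to 61131139) and measured 239, 244 and 268 CPM in the control mice against 171, 184 and 128 CPM in the knockout mice. Every knockout mouse was below every control mouse, and the third knockout mouse was the lowest. The means were 250.4 ± 15.2 and 161 ± 29.4 CPM, a fold of 0.644, with a log2 fold change of -0.63 (95% confidence interval -0.95 to -0.32). The edgeR adjusted p was 0.0933 and the DESeq2 adjusted p was 8.72e-05, so the call depended on the tool. The exact permutation test gave p = 0.1, the smallest that 3 against 3 mice allow.

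The other genes of the colony-stimulating factor axis were read as a group. Of 12 genes in the list beside Csf1 and Csf1r, 10 were tested, and edgeR called 0 of them, with 2 lower (Kit and Kitl) and 0 higher at an unadjusted p under 0.05, while DESeq2 called 1 lower (Kitl) and limma 0. Their median log2 fold change was -0.07. Il34 encodes the second ligand of CSF1R, and its log2 fold change was -0.00. Kitl encodes the ligand of the stem cell factor receptor, and its mean was 64.8 ± 4.61 CPM in control and 49.9 ± 2.54 CPM in knockout tissue, with every knockout mouse lower (log2 fold change -0.38, edgeR adjusted p = 0.0750, DESeq2 adjusted p = 0.00527). Csf2 and Csf3, the growth factors for granulocytes and macrophages, had at most 3 reads in any library and were not tested.

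Spi1 encodes PU.1 and lies on chromosome 2 (91082374 to 91115759). It measured 29.4, 30.3 and 24.3 CPM in the control mice and 23.6, 22.7 and 20.1 CPM in the knockout mice. The groups were separate, but the lowest control mouse and the highest knockout mouse nearly met. The log2 fold change was -0.34 (95% confidence interval -0.60 to -0.08, edgeR adjusted p = 0.221).

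Of 15 other transcription factors used by macrophages, edgeR called 0, with 3 higher and 4 lower at an unadjusted p under 0.05, DESeq2 called 2 higher and 1 lower, and limma called 0. The median log2 fold change was -0.05. Cebpa, which acts with PU.1 in myeloid progenitors, measured 41.3, 42.6 and 36.8 CPM in control and 30.5, 22.4 and 27.5 CPM in knockout tissue (log2 fold change -0.59, edgeR adjusted p = 0.0914, DESeq2 adjusted p = 0.00206). Every knockout mouse was below every control mouse for Cebpa, and the factors, like the 10 genes, had both signs among them.

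PU.1 binds purine-rich DNA with GGAA at its centre. Because Spi1 is among the 10 genes, the promoters of the others were searched for GAGGAA on both strands (read as TTCCTC on the opposite strand) in windows from 250 bases before to 50 bases after the RefSeq start of transcription in GRCm38.p6. Windows were at hand for 7 of the 10 genes, 9 windows in all, and not for Csf1r, Adgre1 and Spi1. Matches lay in the windows of Aif1, Cd68 and Fcgr1 and in 1 of the 2 windows each of Ms4a7 and Ptprc, and none in those of Csf1 and Mertk. The motif is common, as 28.3% of 32851 mouse promoter windows of this length hold it. The longer GAGGAAGT, which contains the first motif, was in 0 of the 9 windows and in 3.2% of all windows. The windows of 1 gene that was lower in knockout tissue (Aif1) and of 2 whose mean was higher (Cd68 and Fcgr1) are shown from 5′ to 3′ on the strand of the gene, with the matches in capitals.
Aif1: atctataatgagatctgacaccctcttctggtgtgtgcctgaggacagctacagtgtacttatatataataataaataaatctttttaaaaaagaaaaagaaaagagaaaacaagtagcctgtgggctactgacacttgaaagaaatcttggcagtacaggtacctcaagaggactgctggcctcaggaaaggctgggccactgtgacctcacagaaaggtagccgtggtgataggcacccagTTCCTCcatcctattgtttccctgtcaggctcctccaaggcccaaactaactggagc
Cd68: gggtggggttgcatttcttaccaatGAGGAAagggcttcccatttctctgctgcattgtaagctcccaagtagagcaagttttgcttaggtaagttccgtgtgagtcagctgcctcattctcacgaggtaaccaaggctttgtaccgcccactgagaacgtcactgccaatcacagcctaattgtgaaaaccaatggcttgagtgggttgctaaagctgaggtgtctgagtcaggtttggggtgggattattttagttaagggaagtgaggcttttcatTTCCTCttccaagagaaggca
Fcgr1: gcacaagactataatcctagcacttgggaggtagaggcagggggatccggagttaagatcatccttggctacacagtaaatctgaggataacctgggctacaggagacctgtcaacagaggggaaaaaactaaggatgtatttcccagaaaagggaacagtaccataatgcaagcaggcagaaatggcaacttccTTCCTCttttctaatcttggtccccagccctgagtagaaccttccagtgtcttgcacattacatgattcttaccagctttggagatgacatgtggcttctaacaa
Positions count the first transcribed base as 1 and the base before it as -1. The Aif1 window is chr17:35176003-35176302 on the minus strand, and its match begins at -7. The Cd68 window is chr11:69666121-69666420 on the minus strand, with matches beginning at -225 and 30. The Fcgr1 window is chr3:96293920-96294219 on the minus strand, with a match beginning at -55. A match of letters is not a measured binding site.

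Adgre1 encodes F4/80, an adhesion receptor that is widely used to stain mouse macrophages, and lies on chromosome 17 (57358581 to 57483529). It measured 97.4, 103 and 103 CPM in the control mice and 75.3, 73.9 and 61.5 CPM in the knockout mice. The control mice were close together and every knockout mouse was lower. The means were 101 ± 2.98 and 70.2 ± 7.60 CPM, a fold of 0.696, with a log2 fold change of -0.52 (95% confidence interval -0.72 to -0.32). The edgeR adjusted p was 0.0508, which just missed the threshold. With no filter on low counts it was 0.0480, with at least 10 reads required in every library 0.0411, and by DESeq2 1.83e-05, so the call for Adgre1 turned on the filter and the tool. Of the 10 genes, Adgre1 and Csf1r were the only ones called by any of the tests and settings that were run.

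Ptprc encodes CD45 and lies on chromosome 1 (138062859 to 138175756). It measured 35.4, 38.1 and 34.4 CPM in the control mice and 31.3, 37.0 and 26.4 CPM in the knockout mice. The groups overlapped, since the second knockout mouse lay within the control range, although the knockout mouse was lower in each pair. The log2 fold change was -0.19 (95% confidence interval -0.48 to 0.11, edgeR adjusted p = 0.547). That interval runs from a fold of 0.716 to 1.08, so the estimate for Adgre1, a fold of 0.696, lay just outside it. The interval of Adgre1, a fold of 0.606 to 0.800, overlapped it, and the difference between the 2 genes was not tested.

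Of 20 other genes shared by leukocytes, such as Rac2, Coro1a and Itgb2, edgeR called 0, with 6 lower and 0 higher at an unadjusted p under 0.05. DESeq2 called 2 lower and limma 0. Their median log2 fold change was -0.23, Itgb2 being the only gene with a value above 0. For 12 of the 20 every knockout mouse lay below every control mouse, against 11.4% of all genes tested. Rac2, a GTPase of blood cells, measured 32.1 ± 1.58 CPM in control and 22.0 ± 3.01 CPM in knockout tissue (log2 fold change -0.54, edgeR adjusted p = 0.0869, DESeq2 adjusted p = 0.00372). Coro1a, which encodes an actin-binding protein of leukocytes, had a log2 fold change of -0.37 (edgeR adjusted p = 0.107, DESeq2 adjusted p = 0.0240). The summed level of the 20 genes was 637 to 685 CPM in the control mice and 496 to 623 CPM in the knockout mice.

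Aif1 encodes IBA1, a calcium-binding protein of the macrophage cytoskeleton, and lies on chromosome 17 (35170986 to 35176083). It measured 10.8, 9.89 and 11.7 CPM in the control mice and 8.40, 7.79 and 7.78 CPM in the knockout mice. Every knockout mouse was lower, and the spread of the knockout group was small. The log2 fold change was -0.43 (95% confidence interval -0.69 to -0.17, edgeR adjusted p = 0.137). Aif1 had the fewest reads of the 10 genes, from 144 to 213 in a library.

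Cd68 encodes a glycoprotein of lysosomes and late endosomes and lies on chromosome 11 (69664213 to 69666170). It measured 46.8, 37.6 and 46.7 CPM in the control mice and 59.2, 43.3 and 53.8 CPM in the knockout mice. The groups overlapped, because the second knockout mouse was below 2 of the controls, although the knockout mouse was higher in each pair. The log2 fold change was 0.25 (95% confidence interval -0.07 to 0.58, edgeR adjusted p = 0.459). The interval of Cd68 did not reach the estimate for Adgre1, and the difference between the 2 genes was not tested.

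Mertk encodes a receptor tyrosine kinase that binds dying cells through the bridging proteins GAS6 and protein S, and lies on chromosome 2 (128698915 to 128803162). It measured 30.2, 29.7 and 29.5 CPM in the control mice and 35.3, 34.6 and 33.3 CPM in the knockout mice. Both groups were tight and every knockout mouse was higher. The means were 29.8 ± 0.337 and 34.4 ± 0.992 CPM, with a log2 fold change of 0.21 (95% confidence interval 0.07 to 0.34, edgeR adjusted p = 0.162).

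Mertk was read with 18 other genes for the recognition and clearance of dying cells. The edgeR test called 0, with 2 higher and 5 lower at an unadjusted p under 0.05, DESeq2 called 2 in each direction and limma called 0, and the median log2 fold change was -0.10. The kinases related to Mertk had values near 0, with log2 fold changes of -0.03 for Axl and 0.11 for Tyro3. The bridging proteins gave -0.20 for Gas6 and -0.10 for Pros1. Among scavenger receptors, Stab1 measured 251 ± 12.9 CPM in control and 170 ± 21.7 CPM in knockout tissue (log2 fold change -0.57, edgeR adjusted p = 0.0662, DESeq2 adjusted p = 7.86e-06), and Timd4, a receptor for phosphatidylserine on resident macrophages, had a log2 fold change of -1.43 at a mean of 2.57 CPM in control tissue (edgeR adjusted p = 0.113, DESeq2 adjusted p = 0.0414). The 2 higher DESeq2 calls were Megf10 (log2 fold change 0.78, DESeq2 adjusted p = 0.0446) and Itgb5 (0.34, DESeq2 adjusted p = 0.00262). Every knockout mouse was higher for both, and their edgeR adjusted p was 0.204 and 0.125. Clearance genes thus differed in direction, Mertk, Megf10 and Itgb5 having a higher and Stab1 and Timd4 a lower mean in knockout tissue.

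Fcgr1 encodes CD64, the high-affinity receptor for immunoglobulin G, and lies on chromosome 3 (96282909 to 96293969). It measured 15.6, 19.0 and 14.1 CPM in the control mice and 18.5, 17.9 and 16.2 CPM in the knockout mice. The groups overlapped, and the log2 fold change was 0.11 (95% confidence interval -0.19 to 0.41, edgeR adjusted p = 0.748). Of 8 other Fc receptor genes tested, edgeR, DESeq2 and limma each called 0, with 1 lower and 0 higher at an unadjusted edgeR p under 0.05, and the median log2 fold change was -0.12. That 1 gene was Fcer1g, the signalling chain shared by several Fc receptors, with 42.1 ± 4.47 CPM in control and 32.2 ± 2.86 CPM in knockout tissue (log2 fold change -0.39, adjusted p = 0.153).

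Ms4a7 encodes a membrane-spanning protein of the MS4A family that marks macrophages and lies on chromosome 19 (11321039 to 11336146). It measured 25.5, 22.9 and 24.1 CPM in the control mice and 29.8, 26.6 and 26.7 CPM in the knockout mice. Every knockout mouse was higher, with a log2 fold change of 0.19 (95% confidence interval 0.01 to 0.38, edgeR adjusted p = 0.323). Of 9 other Ms4a genes tested, edgeR, DESeq2 and limma each called 0, with 0 higher and 1 lower (Ms4a2) at an unadjusted edgeR p under 0.05, and the median log2 fold change was -0.06. Ms4a2 is part of the immunoglobulin E receptor of mast cells, and its log2 fold change was -0.88 at a mean of 2.31 CPM in control tissue (adjusted p = 0.286).

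**Figure D2:**
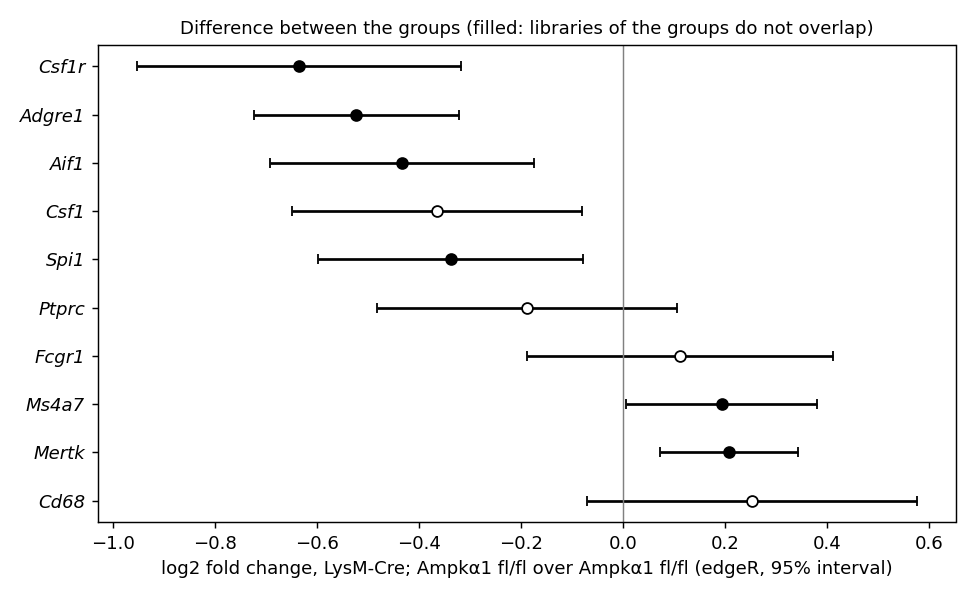
The horizontal axis gives the log2 fold change, knockout over control, from the edgeR fit for each of the 10 genes, with 95% confidence intervals that are not adjusted for the number of genes tested; filled points mark genes whose groups do not overlap. The intervals of Csf1r, Adgre1, Aif1, Csf1 and Spi1 lie below 0, those of Mertk and Ms4a7 above 0, and those of Ptprc, Fcgr1 and Cd68 include 0.

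Levels were compared between genes as TPM, a scale that takes account of transcript length. In control tissue the order of the mean levels was Csf1r (140 ± 9.82 TPM), Cd68 (94.1 ± 12.9), Adgre1 (69.8 ± 1.38), Spi1 (48.3 ± 4.85), Ms4a7 (47.6 ± 3.22), Csf1 (45.1 ± 3.16), Aif1 (35.2 ± 3.56), Ptprc (15.4 ± 0.563), Mertk (14.3 ± 0.442) and Fcgr1 (14.2 ± 1.90). The ranges of Spi1, Ms4a7 and Csf1 overlapped each other, and that of Fcgr1 overlapped those of Mertk and Ptprc. These genes were therefore not ordered beyond their spread. In knockout tissue Cd68 came first, with 113 ± 15.3 TPM, and Csf1r second, with 90.7 ± 18.8 TPM, although their ranges overlapped. Ms4a7, at 55.0 ± 3.71 TPM, stood beside Adgre1, at 48.9 ± 6.42 TPM, again with overlapping ranges. Ptprc was last there, at 13.6 ± 2.69 TPM, in a range that overlapped those of Fcgr1 (15.4 ± 1.34 TPM) and Mertk.

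Ratios of 2 genes within a library were taken as differences of log2(CPM + 0.5). Apart from the 0.5 added, these ratios do not depend on the scaling of that library. They were chosen after the values of the single genes had been seen and are given as a description. Of the 45 pairs, 23 had ratios that did not overlap between the groups, against 43.3% of all ratios of 1 of these genes to a gene tested, so the count of separate pairs was near the background. The pairs with the largest differences set Csf1r or Adgre1 against the genes with a higher mean in knockout tissue. The log2 ratio of Csf1r to Cd68 was 2.34, 2.68 and 2.51 in the control mice and 1.52, 2.08 and 1.25 in the knockout mice, a difference of -0.89. The log2 ratio of Csf1r to Mertk was 2.97, 3.02 and 3.16 against 2.26, 2.40 and 1.93, a difference of -0.85. For Adgre1 to Mertk it was 1.68, 1.77 and 1.78 against 1.08, 1.08 and 0.87, a difference of -0.73. In contrast, Csf1r to Adgre1 gave overlapping groups with a difference of -0.12, and none of the 6 pairs among Cd68, Mertk, Ms4a7 and Fcgr1 had separate groups.

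**Figure D3:**
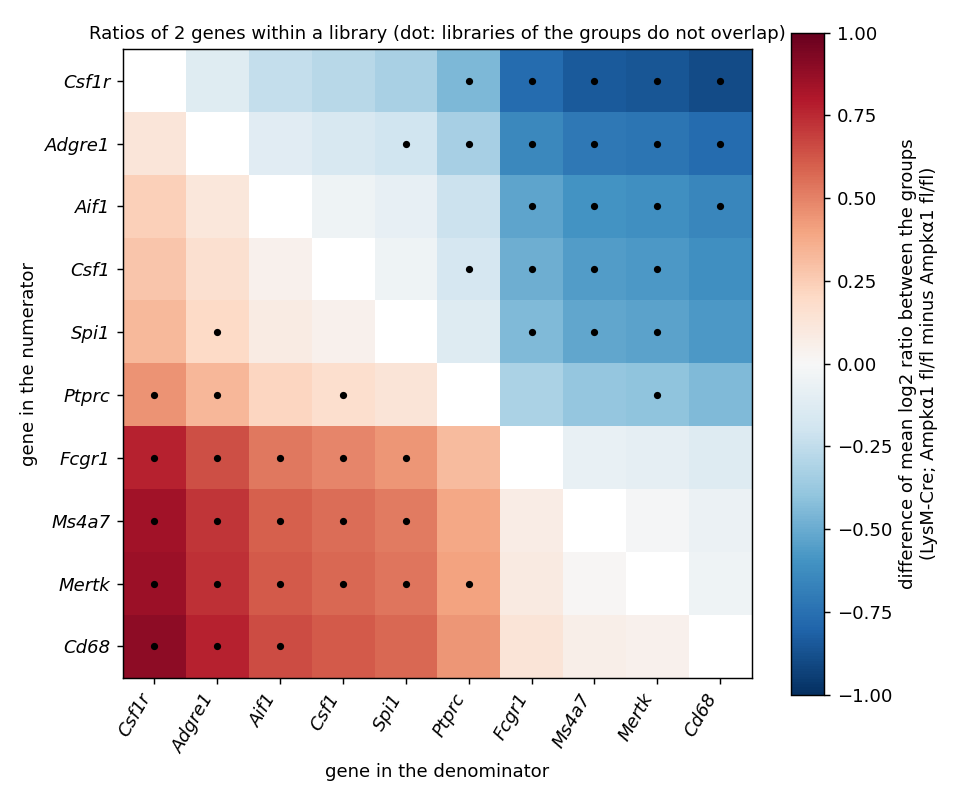
The grid gives, for each pair of the 10 genes, the knockout mean minus the control mean of the log2 ratio within a library, and marks with a dot the pairs whose 3 control and 3 knockout values do not overlap. With Csf1r or Adgre1 in the numerator, the lowest values are those with Cd68, Mertk, Ms4a7 and Fcgr1 in the denominator. Pairs among those 4 genes do not separate the groups.

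The 10 genes were also set against the mean log2 CPM of the 20 pan-leukocyte genes, as a level per leukocyte RNA. That mean was 4.51 ± 0.06 in control and 4.27 ± 0.18 in knockout tissue, a difference of -0.25 with separate groups (exact permutation test, two-sided, p = 0.1, the smallest possible). After this scaling 5 of the 10 genes had separate groups, against 38.8% of the genes tested outside that list, which is a share of the same order. The scaled log2 level of Csf1r differed by -0.40 and that of Adgre1 by -0.28, and every knockout mouse was lower for both. The scaled levels of Mertk, Ms4a7 and Fcgr1 differed by 0.45, 0.44 and 0.36, and every knockout mouse was higher (exact permutation p = 0.1 for each of these 5 genes). The groups overlapped for Aif1 (-0.16), Csf1 (-0.12), Spi1 (-0.08), Ptprc (0.05) and Cd68 (0.49). The direction of each gene but Ptprc was the same with and without this scaling.

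**Figure D4:**
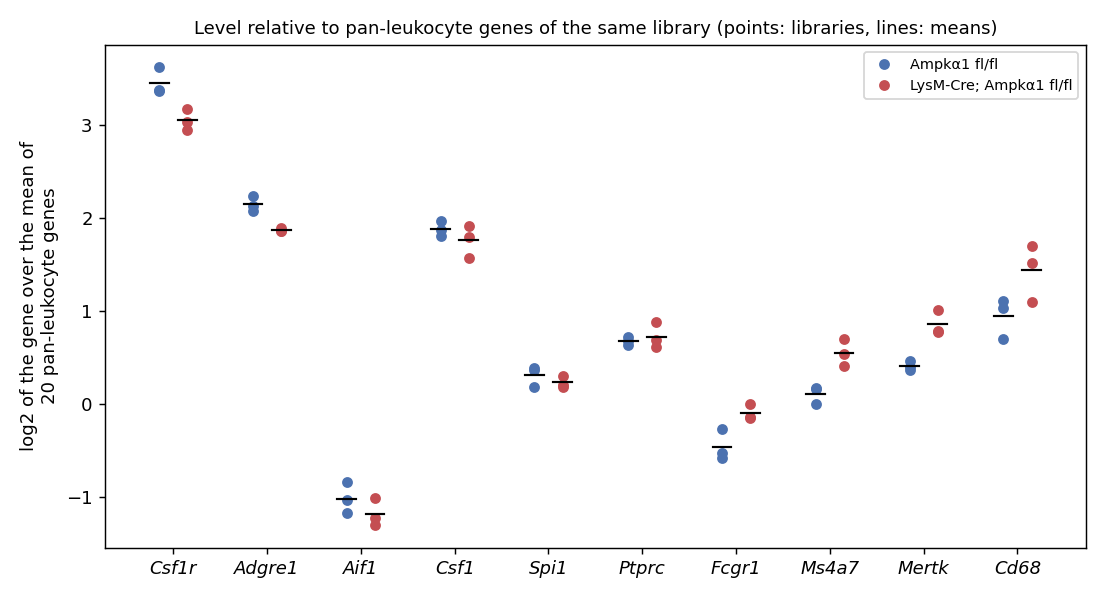
The vertical axis gives the log2 level of each of the 10 genes minus the mean log2 CPM of 20 pan-leukocyte genes in the same library, with 1 point per mouse; heights are not comparable between genes, since the values are not per length. Csf1r and Adgre1 lie lower in every knockout mouse, and Mertk, Ms4a7 and Fcgr1 lie higher in every knockout mouse.

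Summed over the 8 macrophage genes (the 10 without Csf1 and Ptprc), the level was 495, 496 and 521 CPM in the control mice and 421, 411 and 348 CPM in the knockout mice. Csf1r had the highest CPM of the 8 in every library and weighs most in this sum. The median log2 fold change of the 8 was -0.11. Among 26 further genes of macrophages, edgeR called 0, with 1 higher and 8 lower at an unadjusted p under 0.05, while DESeq2 called 1 higher and 2 lower and limma 0, and their median log2 fold change was -0.24. Pld4, which encodes a nuclease of myeloid endosomes, measured 57.0 ± 2.26 CPM in control and 38.8 ± 4.81 CPM in knockout tissue (log2 fold change -0.56, edgeR adjusted p = 0.0597, DESeq2 adjusted p = 0.000170). Mpeg1, which encodes the pore-forming protein perforin-2, measured 85.8 ± 8.93 and 127 ± 24.1 CPM (log2 fold change 0.57, edgeR adjusted p = 0.141, DESeq2 adjusted p = 0.00250). The summed level of the 26 genes overlapped between groups, at 1712 to 1807 CPM in control and 1464 to 1784 CPM in knockout tissue.

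Genes of tissue-resident macrophages were read as well, with no test of their difference from the general genes. Of 14 tested, edgeR called 7 lower and 0 higher (5 lower with the replicate number as a block), DESeq2 called 13 lower, and the median log2 fold change was -1.25. This list was written with results of these libraries known and is no independent evidence of a direction. Cd209f, which encodes a C-type lectin, measured 7.97 ± 0.432 CPM in control and 1.53 ± 0.185 CPM in knockout tissue, and fell by 2.38 on the log2 scale (edgeR adjusted p = 0.00446). Marco, which encodes a scavenger receptor for bacteria, fell by 2.90 from a mean of 2.57 CPM (adjusted p = 0.0217, or 0.0528 with the block), and Cd209g fell by 2.87 from 1.86 CPM (adjusted p = 0.0455, or 0.0848 with the block). The Cd209 genes are related to each other, and how reads were divided among them was not examined and is uncertain. Not all of the list had values of that size, since the log2 fold changes of Siglec1, Stab1 and Gas6 were -0.61, -0.57 and -0.20, within the range of the general genes.

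Markers of other cells were read beside these values, each sum being over all genes of a list that are in the table. Of all genes tested, edgeR called 0.33% higher and 0.568% lower. At an unadjusted p under 0.05 it held 5.97% higher and 8.55% lower, and 11.4% had every knockout mouse below every control mouse. Of 10 neutrophil genes tested, edgeR, DESeq2 and limma each called 0 and 0 reached an unadjusted p under 0.05, and the summed level was 14.3 to 59.8 CPM in control and 18.3 to 59.5 CPM in knockout tissue. Of 19 T and NK cell genes 4 could be tested, with 0 called by each tool and 0 at an unadjusted p under 0.05, and the summed level was 11.4 to 14.4 against 9.78 to 12.4 CPM. Of 12 B cell genes 3 could be tested, with 0 called by each tool and 1 lower at an unadjusted p under 0.05, and the summed level had a mean of 6.26 against 4.96 CPM. Dendritic cell genes summed to 27.9 to 30.3 against 25.2 to 32.2 CPM, with 0 of 9 called by each tool and 1 lower at an unadjusted p under 0.05. Mast cell genes summed to 383 to 540 against 166 to 261 CPM, with 1 of 9 called lower by edgeR (3 with the replicate block), 5 lower by DESeq2 and 0 by limma, and 7 lower with separate groups at an unadjusted p under 0.05. The edgeR call was Cma1, a mast cell protease, which fell by 1.30 on the log2 scale (adjusted p = 0.0431). Ptprc and the pan-leukocyte genes are expressed in mast cells too, and the part of mast cells in their values was not tested.

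Osteoclasts share the CSF1 dependence of macrophages, and their 6 tested genes summed to 557 to 599 CPM in control and 627 to 692 CPM in knockout tissue. Without Ctsk, a protease gene, the other 5 summed to 182 to 196 and 166 to 190 CPM, with overlapping groups. The edgeR and limma tests called 0 of them and DESeq2 1, with 1 higher at an unadjusted p under 0.05, which was Ctsk (log2 fold change 0.30, edgeR adjusted p = 0.0914). Fcgr1 is inducible by interferon in macrophages, and 21 interferon-stimulated genes were read for that reason. Of these edgeR and limma called 0 and DESeq2 13 higher, with 15 higher and 0 lower at an unadjusted p under 0.05, and the summed level was 283 to 317 CPM against 378 to 705 CPM. Their part in the values of Fcgr1 was not tested.

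**Figure D5:**
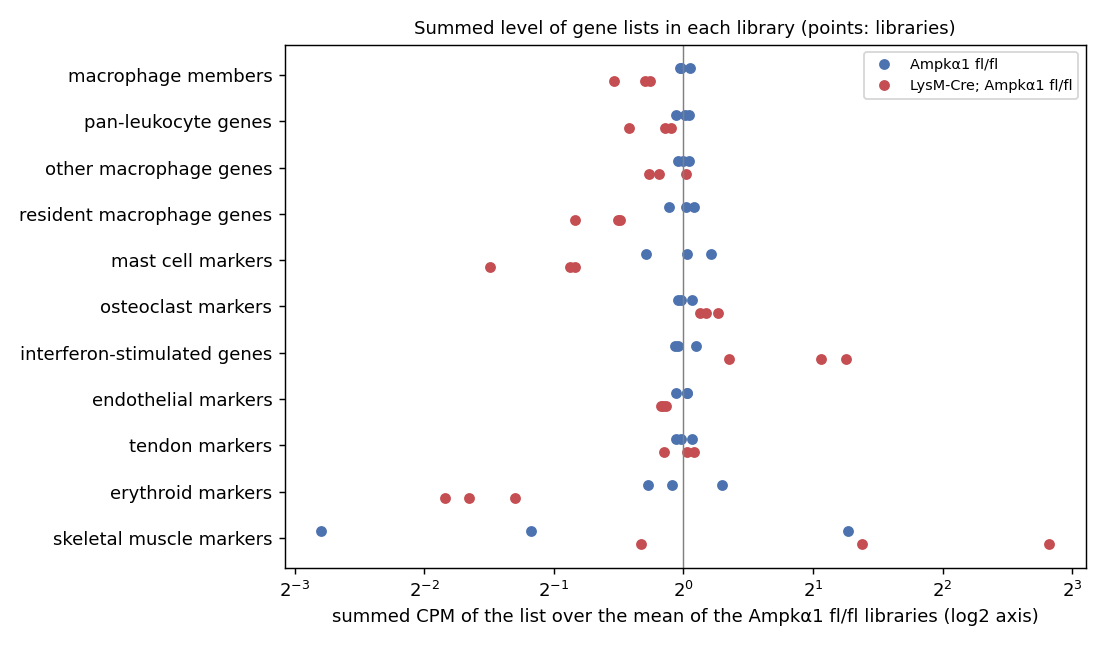
The horizontal axis, on a log2 scale, gives the summed CPM of each gene list in a library over the mean of the 3 control libraries, with 1 point per mouse (control blue, knockout red); macrophage members are the 8 macrophage genes. The macrophage members (495 to 521 against 348 to 421 CPM), the pan-leukocyte, resident macrophage, mast cell, endothelial and erythroid genes sum lower in every knockout mouse than in any control mouse, whereas skeletal muscle genes vary widely within both groups.

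Other components of the tissue were read in the same way. Erythroid genes summed to 1998 to 2974 CPM in control and 676 to 983 CPM in knockout tissue, with 6 of 7 called lower by edgeR (1 with the block), and 10 endothelial genes summed to 1024 to 1088 against 947 to 970 CPM, with 0 called by edgeR and limma, 2 lower by DESeq2 and 3 lower at an unadjusted p under 0.05. Of 16 cell division genes all 16 were lower at an unadjusted edgeR p under 0.05, against 8.55% of all genes tested. For these 16, edgeR and limma called 0 and DESeq2 10, and the median log2 fold change was -0.62. The tendon genes summed to overlapping levels, with 1 of 12 called lower (Dcn, which encodes the matrix proteoglycan decorin, which fell by 0.45 on the log2 scale, adjusted p = 0.0301), and 0 with the block. The part of these in the values of the 10 genes was not tested. For muscle RNA, a score over the skeletal muscle genes was added to the fit. With that term the estimates were -0.57 for Csf1r and -0.48 for Adgre1, close to those without it. The edgeR adjusted p of these 2 genes was then 0.188 and 0.118. The estimate was -0.20 for both Spi1 and Csf1 and -0.05 for Ptprc, and these were smaller in size by more than 1.5 times. That for Cd68 became 0.15 and that for Fcgr1 0.21, and no direction turned.

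Genes were sought whose profile over the 6 libraries was most like the mean profile of the 8 macrophage genes, or like that of Csf1. The measure was the root mean square distance between log2 CPM profiles scaled to mean 0 and SD 1. It was taken over 11475 genes with a mean of at least 5 CPM. Nearest to the mean profile of the 8 macrophage genes were Inpp5d (distance 0.165), a lipid phosphatase of blood cells, Ripor3 (0.197) and Dse (0.260). Their log2 fold changes were -0.07, -0.06 and -0.05. The 8 genes have both directions among them, and their mean profile differs little between the groups. The 8 genes themselves lay from 0.775 (Spi1) to 1.35 (Mertk) from that mean profile, so none of them followed it as closely as Inpp5d, Ripor3 and Dse. Nearest to Csf1 were Sgpp1 (0.0750), which encodes a phosphatase of sphingosine phosphate, Ly6a (0.0931), which encodes the surface protein SCA-1, and Pappa2 (0.114), which encodes a protease of insulin-like growth factor binding proteins. Their log2 fold changes were -0.25, -0.54 and -0.86, with edgeR adjusted p from 0.2415 to 0.2886, and like Csf1 each was highest in the second mouse of each group.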

How the data were processed

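Libraries from the whole tissue of 6 mice were sequenced on the BGISEQ platform. The authors deposited, for each of 65053 RefSeq transcripts, unnormalized estimated counts and TPM values, the latter adjusted by the authors for transcript length and library total. The aligner and counting tool are not given in the sources used here, and the submitters' processing notes name GRCm38.p6. Another 20 columns (FPKM, normalized counts and group averages) were not used.

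Estimated counts were summed per gene and rounded, and 18049 of 18099 genes (99.72%) matched a RefSeq symbol. The main test was the quasi-likelihood F test of edgeR 4.0.16 (R 4.3.3) after TMM scaling and filterByExpr, over 6 libraries and 14261 genes, and a gene was called at a Benjamini-Hochberg adjusted p under 0.05. DESeq2 1.42.0 and limma 3.58.1 on log2(TPM + 0.5) were alternatives, as were other scalings, filters, a muscle covariate, a replicate block and leaving out each mouse. Single values were compared by the exact two-sided permutation test on log2(CPM + 0.5), over 20 splits. Pairing the libraries by the replicate number is an assumption, since the labels do not state pairs. The deviations of same-numbered mice from their group means had correlations of 0.130, 0.133 and 0.320, and mice with different numbers were not compared.

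The 10 genes and all gene lists were chosen with earlier results of these data known. Beside them and the targeted gene and Cre locus, the genes named were, for each list, up to 3 called genes with the largest change or, with none called, the 2 with the smallest p, and the 3 nearest profiles. Some genes that this rule selects are not reported here. Il34, Csf2, Csf3, Axl, Tyro3, Gas6, Pros1, Megf10, Itgb5, Itgb2, Kit and Siglec1 were named for their roles or their place in a count. They stood outside that rule, and their values were known. Reads between 144 and 4883 per gene and library stood behind the 10 genes, and the number of mice limits the precision.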

Additional observations from a re-analysis of the deposited data

How the results depend on the processing

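None of the 10 genes turned direction under any of the 14 alternatives, and 4 were higher and 6 lower in each. The count of these genes called was 2 by DESeq2 (Csf1r and Adgre1), 1 with no filter on low counts and 1 with at least 10 reads in every library (Adgre1 in both), and 0 under every other alternative, each mouse left out included. With the replicate block, which treats same-numbered mice as pairs, 0 of them were called, and the calls over all genes went from 128 to 47. Over all genes, DESeq2 called 680, limma on TPM 69 and the fit with the muscle score 76, and leaving out 1 mouse gave from 8 to 276 calls. Those counts were 10, 8 and 24 without control mouse 1, 2 and 3 and 12, 276 and 60 without knockout mouse 1, 2 and 3. The median log2 fold change of the 10 genes, -0.26, was -0.12 with the muscle score, and with 1 mouse left out it ran from -0.34 to -0.17, the latter without knockout mouse 3. With 1 mouse left out, between 6 and 9 of the 10 had separate groups, where 26.9% to 38.5% of all genes did, and the 9, like the 38.5%, came without knockout mouse 2. With 1 mouse left out, the log2 fold change of Fcgr1 ran from 0.02 to 0.24, that of Ptprc from -0.32 to -0.07 and that of Cd68 from 0.15 to 0.37. The causes were not tested.

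With 3 mice a group, no exact test of a single gene can go below p = 0.1.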

Other observations

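Reads of a gene were divided among its transcripts by estimation, which is uncertain where transcripts overlap, and the following shares are given as values without a test. The transcript NM_007778 of Csf1 took 85.7% to 90.3% of the gene's TPM in the control mice and 74.5% to 86.3% in the knockout mice, and NM_001113529 took 7.07% to 8.12% and 8.59% to 20.6%. The main Spi1 transcript, NM_011355, took 77.1% to 83.9% and 61.3% to 80.4%, and XM_017316733, a predicted model, took 2.36% to 3.19% and 6.40% to 21.8%. The latter rests on few reads, with estimated counts of at most 14.6 in the control mice and from 24.5 to 70.8 in the knockout mice. The main Adgre1 transcript, NM_010130, took 73.9% to 85.1% and 74.0% to 80.0%. Csf1r, Cd68 and Fcgr1 had 1 transcript each.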
